A study of Drosophila melanogaster with 9 samples.

Results

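Ser7, Sp212, CG31326 and CG9631 are 4 genes of the serine protease family in Drosophila melanogaster. They were chosen by their adjusted counts, out of the 10372 genes of the deposited table, as protease genes that were low in fat bodies of larvae that carried an inducible insulin receptor transgene but had not been heated. The choice therefore used the values of that unheated group, and its differences from the other groups are given below as a description, with no test. The fat body of insects combines the storage of lipid and glycogen with the secretion of blood proteins, immune factors among them.

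RNA was sequenced, after removal of ribosomal RNA, from fat bodies of female larvae, still feeding, in the third instar, with 3 libraries in each of 3 groups. In InRCA_HS, virgin females with the hs-GAL4 driver were mated with males of Bloomington stock 8263, whose transgene UAS-InR.A1325D encodes a constitutively active insulin receptor, and the offspring were heated to 37 °C for 30 min. In InRCA_noHS, offspring of the same cross were moved to a new vial without heat and stayed at 25 °C. In control_HS, hs-GAL4 females were mated with y1w1118 males of stock 6598, which have no such transgene, and the offspring were heated in the same way as InRCA_HS. Fat bodies were taken 6 h later by shearing and centrifugation. All 3 groups carried hs-GAL4, a driver that a heat shock turns on and that is not limited to the fat body. InRCA_HS and InRCA_noHS differed in heat and receptor induction together, and InRCA_noHS and control_HS in both cross and heat, so these factors cannot be told apart in those comparisons. InRCA_HS and control_HS differed in cross and in receptor induction. The control cross without heat was not analysed here. Whether the 3 libraries of each group are separate cultures is not stated, so every p-value reflects the variation among these libraries, some of which could be technical.

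Values are adjusted counts, that is, read counts that the authors adjusted for library size, judged from the values. Their sums still ranged from 10625500 in InRCA_HS replicate 1 to 15514900 in control_HS replicate 3. Summed counts of marker genes below are not corrected for this. A gene is said to be called, or to pass, where its limma p-value, adjusted over all genes by the Benjamini-Hochberg method, was under 0.05. The recovered whole reads came to between 8752426 in InRCA_noHS replicate 1 and 17599603 in InRCA_HS replicate 3. InR had 47774 to 66688 adjusted counts in InRCA_HS, 1821 to 3662 in InRCA_noHS and 743 to 826 in control_HS. It was highest in the group whose label gives both transgene and heat. Without heat it was still called, with InRCA_noHS 3.09-fold above control_HS (adjusted p = 0.00467 by limma) and no overlap. InRCA_noHS and control_HS thus differed in InR level as well as in cross and heat, and the source of that InR difference was not tested. The 14 fat body marker genes held between 23.3% (InRCA_noHS replicate 2) and 31.0% (control_HS replicate 1) of the adjusted counts of a library. None was below 1 adjusted count. Every gene of the table had at least 1 recovered read in every library, so presence alone is no check of the tissue. The summed adjusted counts of 14 heat shock protein genes were 50155 to 83564 in InRCA_HS, 76934 to 92397 in InRCA_noHS and 46159 to 54438 in control_HS. Single genes differed: Hsp70Bb was called higher in InRCA_HS than in InRCA_noHS and Hsp83 lower (14.3% of the 14, against 2.55% of all genes). Hsp68 and stv were called lower, and Hsp23 and Hsp67Bc higher, in InRCA_noHS than in control_HS (28.6%, against 7.03%). Between the 2 heated groups, Hsp68 and stv were also called lower, and Hsp67Bc and Hsp70Bb higher, in InRCA_HS than in control_HS (28.6%, against 2.43%).

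Serine proteases of the trypsin type are made as inactive precursors and become active once cut. Many are secreted into the insect blood, the hemolymph, where they act in chains: each protease cuts and activates the next. In the best known chain of Drosophila, ModSP and Grass lead to SPE, which cuts the cytokine Spätzle, the ligand of the receptor Toll. Persephone and Hayan start a parallel branch, and related chains switch on the prophenoloxidases that make melanin. Serpins, which trap active proteases, hold the chains in check. Serine protease homologues share the fold but lack a working catalytic site. RefSeq numbers the fly genes of the family in an SP series and the homologues in an SPH series. Ser7 has the name c-SP3 there, in the numbering of the clip-domain proteases. Sp212 has SP212 and CG9631 has SP60, both names of proteases, while CG31326 has SPH144, the name of a homologue.

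Ser7 (FBgn0019929) lies on the plus strand of the X chromosome, and no annotated gene overlaps it. Its adjusted counts were 607, 387 and 391.7 in InRCA_HS, 4.89, 4.13 and 6.77 in InRCA_noHS, and 108, 215 and 79.6 in control_HS. The 3 groups did not overlap: every InRCA_HS library lay above every control_HS library, and every control_HS library above every InRCA_noHS library. The means were 462 ± 126 in InRCA_HS, 5.27 ± 1.36 in InRCA_noHS and 134 ± 71.7 in control_HS (SD, n = 3 each, as for every mean below).

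Sp212 (FBgn0053329) lies on the minus strand of chromosome arm 3R. It had 552, 522 and 437 adjusted counts in InRCA_HS, 9.99, 2.12 and 25.7 in InRCA_noHS, and 199, 343 and 243 in control_HS. The groups stood in the same order as for Ser7 and again did not overlap. Its spread was very unequal, with a range of 1.26-fold between the highest and the lowest library in InRCA_HS, 12.2-fold in InRCA_noHS and 1.73-fold in control_HS. The means were 503 ± 59.7 in InRCA_HS, 12.6 ± 12.0 in InRCA_noHS and 262 ± 74.2 in control_HS.

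CG31326 (FBgn0051326), the gene with the homologue name, is on the same arm and strand as Sp212. Its adjusted counts were 273, 193 and 142 in InRCA_HS, 9.57, 7.22 and 11.8 in InRCA_noHS, and 57.2, 134 and 50.1 in control_HS. The groups did not overlap, but the lowest InRCA_HS library and the highest control_HS library lay close together. The means were 202 ± 66.1 in InRCA_HS, 9.54 ± 2.30 in InRCA_noHS and 80.4 ± 46.6 in control_HS.

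CG9631 (FBgn0027563) lies beside Sp212 on the same strand and had the narrowest range of levels. It had 106, 123 and 80.3 adjusted counts in InRCA_HS, 31.9, 23.7 and 44.6 in InRCA_noHS, and 37.8, 37.3 and 51.4 in control_HS. The InRCA_HS libraries lay above all others, while the InRCA_noHS and control_HS libraries overlapped. Its means were 103 ± 21.5 in InRCA_HS, 33.4 ± 10.6 in InRCA_noHS and 42.2 ± 8.0 in control_HS. For this gene, then, a low level without heat shock held against InRCA_HS and not against control_HS.

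**Figure D1:**
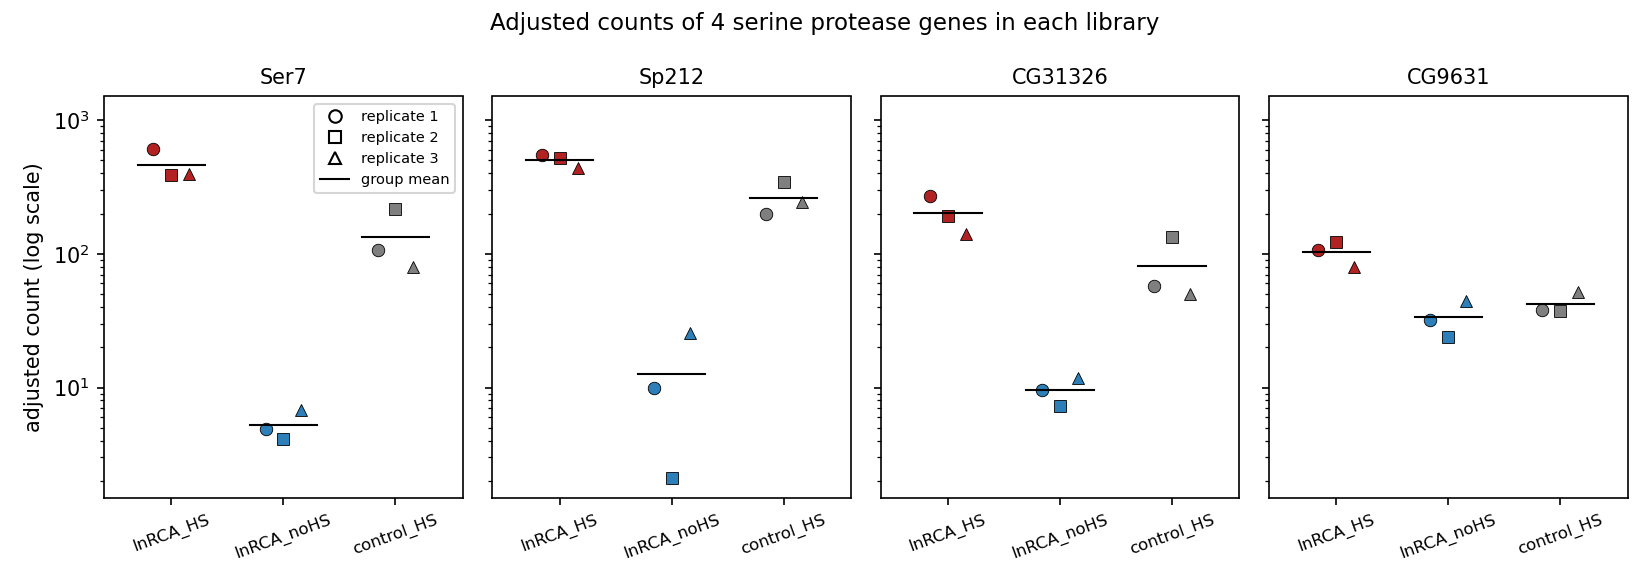
Adjusted counts (log scale) of Ser7, Sp212, CG31326 and CG9631 in each library, with 1 point per library and a bar at the group mean, for InRCA_HS, InRCA_noHS and control_HS. The InRCA_noHS libraries lie below all others for Ser7, Sp212 and CG31326, whereas those of CG9631 (23.7 to 44.6) overlap control_HS (37.3 to 51.4).

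The heated and the unheated offspring of the transgene cross differed by a wide margin in all members but CG9631. On the log2(adjusted count + 1) scale of the limma fit, which understates changes of low values, Ser7 was 73.3-fold higher in InRCA_HS than in InRCA_noHS (log2 fold change 6.20, SE 0.36), the highest value of the 10372 genes. Sp212 was 51.7-fold higher (5.69, SE 0.59) and stood next in that order. CG31326 was 18.9-fold higher (4.24, SE 0.39) and ranked 10 from the top, and CG9631 was 3.08-fold higher (1.62, SE 0.29) and ranked 129. Sp212 depended on single libraries here: its log2 fold change was 4.87 without InRCA_noHS replicate 2 and 6.42 without InRCA_noHS replicate 3. The same difference chose the genes, so these sizes and ranks describe the choice. The ranks hold among the genes of the table, each of which had at least 1 recovered read in every library.

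In InRCA_noHS the levels of all members but CG9631 rested on few reads. Ser7 had 726, 409 and 568 recovered reads in InRCA_HS, 3, 4 and 8 in InRCA_noHS, and 111, 186 and 48 in control_HS. Over all recovered reads of a group, its share was 96.1 times as high in InRCA_HS as in InRCA_noHS (95% exact interval 58.1 to 172). For Sp212 this ratio was 41.1 (29.8 to 58.2), for CG31326 23.1 (15.7 to 35.3) and for CG9631 3.30 (2.63 to 4.17). Such intervals cover counting error only, not the spread between libraries. Sp212 had 6, 2 and 30 reads in InRCA_noHS. Its 1.89 RPM of recovered reads in replicate 3 (95% exact interval 1.28 to 2.70) and 0.175 RPM in replicate 2 (0.0212 to 0.632) differed by more than counting error.

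Against control_HS, the unheated group was lower for the same 3 genes. Sp212 was 26.4-fold lower in InRCA_noHS (log2 fold change −4.72, SE 0.59), Ser7 20.05-fold lower (−4.33, SE 0.36) and CG31326 7.12-fold lower (−2.83, SE 0.39). They ranked 9, 14 and 46 from the lowest fold change, ranks that the choice of genes low in InRCA_noHS set. For Sp212 the log2 fold change was −3.90 without InRCA_noHS replicate 2 and −5.45 without InRCA_noHS replicate 3. CG9631 was 1.28-fold lower (−0.36, SE 0.29). Its share of the recovered reads in InRCA_noHS was 0.868 times that in control_HS (0.650 to 1.16).

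The comparison of InRCA_HS with control_HS asks how induction of the active receptor changes expression among heated larvae. The fathers came from different stocks, so receptor and cross cannot be told apart in it either. It is the one comparison that the choice of the genes did not set directly, although the InRCA_HS libraries took part in that choice. The InRCA_HS libraries of all 4 genes lay above all control_HS libraries, a position that 9.53% of all genes had. Ser7 rose 3.66-fold in InRCA_HS (log2 fold change 1.87, SE 0.36, adjusted p = 0.0253 by limma). CG9631 rose 2.40-fold (1.27, SE 0.29, adjusted p = 0.0481). CG31326 was 2.66 times as high, with a log2 difference of 1.41 ± 0.39 (SE) that did not pass (adjusted p = 0.0814 by limma), and Sp212 1.96 times as high (0.97, SE 0.59, adjusted p = 0.429). In all, 2 of the 4 passed, against 1.11% of all genes in the same direction. For CG9631 the low level without heat held against InRCA_HS alone, so its choice favoured a high level in InRCA_HS. The choice may have favoured a high InRCA_HS level in Ser7, Sp212 and CG31326 as well. The p-values of this comparison are thus not free of the choice. The shares over all genes are therefore background to the 4 chosen genes, and setting them side by side is no test. Sp212, with the highest of the 4 p-values, had the smallest of the 4 log2 fold changes and the widest spread among the InRCA_noHS libraries. Those libraries enter the shared estimate of the spread, and the part of each in the p-value was not tested. In a fit of the 6 heated libraries alone the adjusted p of Sp212 was 0.101.

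These calls lie near the threshold. That of Ser7 ended without InRCA_HS replicate 1 (log2 fold change 1.66, adjusted p = 0.12 by limma), without InRCA_HS replicate 2 (1.98, adjusted p = 0.0638) or without control_HS replicate 3 (1.56, adjusted p = 0.102). That of CG9631 held in 2 of the 9 fits that left out a library, with log2 fold changes of 1.13 to 1.43 and adjusted p of 0.0403 to 0.165, and CG31326 passed without control_HS replicate 2 (1.85, adjusted p = 0.0490).

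Within groups, the members did not always vary together. In InRCA_noHS, replicate 3 was the highest and replicate 2 the lowest for all 4 genes. In control_HS, replicate 2 was the highest for Ser7, Sp212 and CG31326, and replicate 3 for CG9631. In InRCA_HS, replicate 1 was the highest for Ser7, Sp212 and CG31326, and replicate 2 for CG9631. Across the 9 libraries, which share their group differences, Pearson's r of a gene's log2 profile with the mean profile of the other 3 members was 0.965 for Ser7, 0.939 for Sp212, 0.970 for CG31326 and 0.796 for CG9631.

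Sp212, CG31326 and CG9631 are neighbours. Gene order, strand and overlaps were taken from the Ensembl annotation of the release 6 assembly. There the genes of one strand on 3R run in the order DopR, CG9649, CG31326, CG33109, Sp212, CG9631, CG9624, CG43291, CG9616. Of these, CG9649 and CG33109 were not analysed here. The run of members thus has a further family gene beside it, CG9649 (SP55). No annotated gene overlaps any of the 4 members, but the sources used here do not state how reads of similar genes were assigned.

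The neighbours outside the family stood in other orders. DopR, a dopamine receptor gene, had 31.1, 14.1 and 29.2 adjusted counts in InRCA_HS, 30.0, 25.7 and 28.4 in InRCA_noHS, and 23.3, 22.1 and 18.3 in control_HS. The InRCA_noHS libraries lay just above those of control_HS, and the InRCA_HS libraries overlapped both. It passed in none of the 3 comparisons (adjusted p = 0.863, 0.773 and 0.502 by limma in the order InRCA_HS against control_HS, InRCA_HS against InRCA_noHS, InRCA_noHS against control_HS). CG9624, on the other side, had 4.98, 1.83 and 8.69 in InRCA_HS, 6.45, 4.14 and 9.35 in InRCA_noHS, and 12.5, 51.7 and 29.5 in control_HS. It was low in both groups of the transgene cross, without passing the test in any comparison (lowest adjusted p = 0.0642, InRCA_HS against control_HS), and neither did CG9616 (lowest adjusted p = 0.621).

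CG43291, the gene after CG9624, was high in both groups of the transgene cross. Its adjusted counts were 138, 150 and 207 in InRCA_HS, 168, 142 and 150 in InRCA_noHS, and 11.6, 8.28 and 15.7 in control_HS. Both groups of the transgene cross were higher than control_HS, InRCA_HS by a log2 fold change of 3.71 (adjusted p = 5.56e-05 by limma) and InRCA_noHS by 3.62 (adjusted p = 6.19e-05). Between InRCA_HS and InRCA_noHS the log2 difference was 0.09 (adjusted p = 0.905). A gene near the members was thus higher in the transgene cross, heated or not, than in control_HS, which was heated in both comparisons. No unheated control enters either of them. Within the run of members, the level of Sp212 relative to CG9631 shifted: the ratio of their adjusted counts was 5.20, 4.24 and 5.44 in InRCA_HS, 0.313, 0.0894 and 0.577 in InRCA_noHS, and 5.26, 9.22 and 4.72 in control_HS. These ratios are not corrected for gene length and compare libraries, not the 2 genes.

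**Figure D2:**
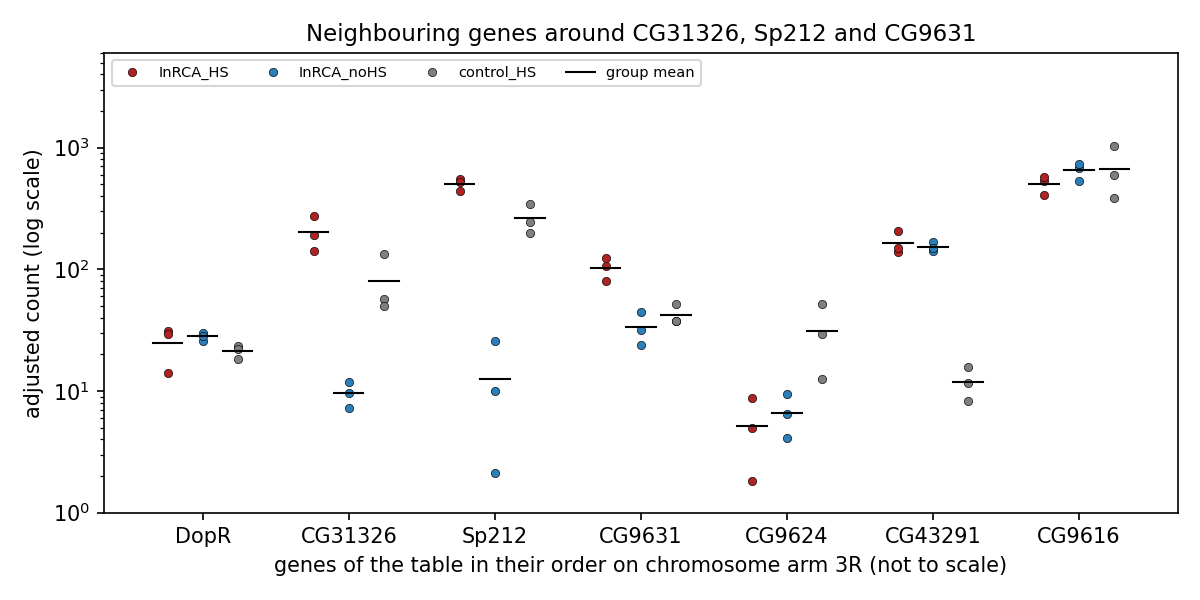
Adjusted counts (log scale) in each library, with 1 point per library and a bar at the group mean, of the genes around CG31326, Sp212 and CG9631, in their order along one strand of chromosome arm 3R. The 3 groups separate for CG31326 and Sp212, DopR lies at 14.1 to 31.1 in InRCA_HS, 25.7 to 30.0 in InRCA_noHS and 18.3 to 23.3 in control_HS, and CG43291 lies at 138 to 207 in InRCA_HS and 142 to 168 in InRCA_noHS, against 8.28 to 15.7 in control_HS.

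Around Ser7 on the X chromosome, Sp1, CG1354 and CG32698 passed in no comparison (lowest adjusted p = 0.0507 by limma, CG32698 in InRCA_HS against InRCA_noHS). CG32695 had 199, 293 and 274 adjusted counts in InRCA_HS, 762, 640 and 480 in InRCA_noHS, and 307, 532 and 717 in control_HS. It was lower in InRCA_HS than in InRCA_noHS (log2 fold change −1.29, adjusted p = 0.0490 by limma), opposite in direction to Ser7.

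The rest of the family moved in both directions. Besides the 4 members, 150 genes of the RefSeq SP and SPH series were in the table. Of these, 3 were called higher and 2 lower in InRCA_HS than in control_HS, that is 3.33%, against 2.43% of all genes. The median log2 fold change of the 150 genes was −0.04, against 0.00 over all genes. CG11192 rose most (3.21, adjusted p = 0.010 by limma), with 13.0, 52.3 and 17.4 adjusted counts in InRCA_HS, 55.1, 107 and 76.9 in InRCA_noHS, and 1.94, 1.2 and 1.67 in control_HS. It was highest without heat in the transgene cross, unlike the members. CG30286 (1.33, adjusted p = 0.00747) and CG7142 (1.001, adjusted p = 0.0234) were also higher in InRCA_HS, and SPE (−1.82) and CG33460 (−1.08, adjusted p = 0.0245) were lower.

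Between InRCA_HS and InRCA_noHS, 3 of the 150 genes were called higher and 3 lower in InRCA_HS, or 4%, against 2.55% of all genes, and their median log2 fold change was −0.24, against −0.14 over all genes. Those higher were CG9737 (log2 fold change 3.83, adjusted p = 0.0150 by limma), grass (1.71, adjusted p = 0.00206) and CG6067 (1.54, adjusted p = 0.0260). Those lower were CG8586 (−1.32, adjusted p = 0.0180), CG4650 (−1.29, adjusted p = 0.0411) and modSP (−0.78, adjusted p = 0.0485). Between InRCA_noHS and control_HS, 8 were called higher and 7 lower in InRCA_noHS, against 7.03% of all genes in either direction. By median log2 fold change the 150 genes stood at 0.18 and all genes at 0.12. Among called genes, the highest values were those of CG11192 (4.91, adjusted p = 0.000393 by limma), CG34437 (2.27, adjusted p = 0.0112) and CG4650 (2.26, adjusted p = 0.00154). The lowest values were those of CG33462 (−3.36, adjusted p = 0.0127), SPE (−2.86, adjusted p = 0.000218) and CG9737 (−2.85, adjusted p = 0.0327). With TMM scaling, which moves the median over all genes to 0.00 in this comparison and to −0.02 in InRCA_HS against InRCA_noHS, the counts were 7 higher and 10 lower in InRCA_noHS against control_HS, and 4 higher and 1 lower in InRCA_HS against InRCA_noHS.

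**Figure D3:**
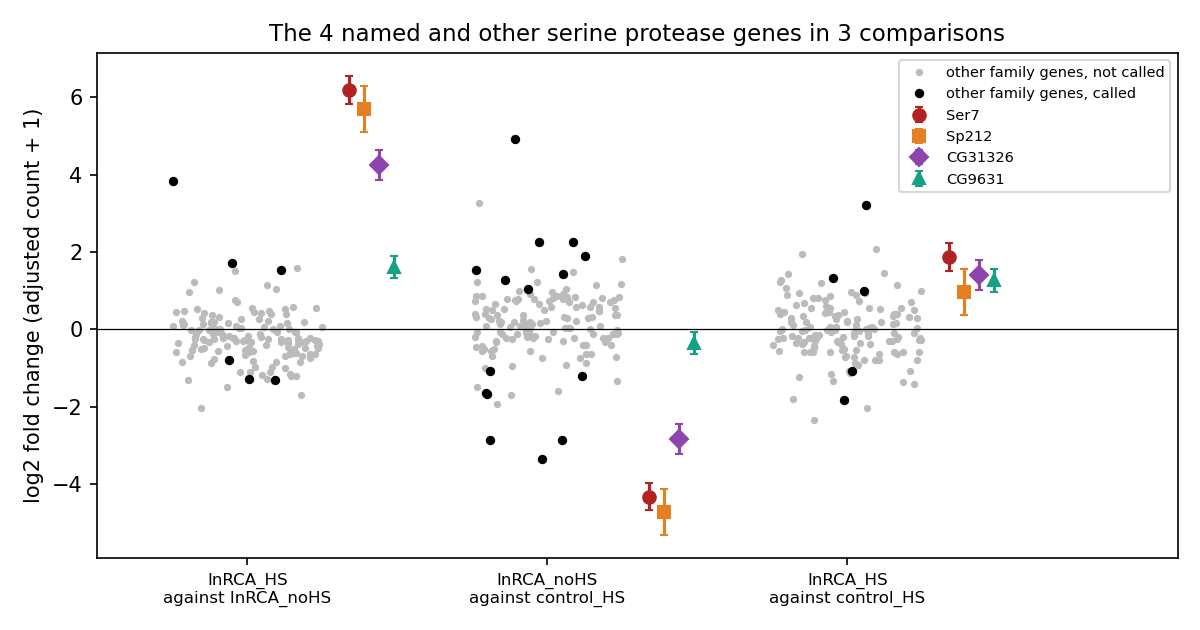
Log2 fold changes on the adjusted count + 1 scale of the serine protease family in the 3 comparisons, with 1 dot per other family gene (black where called) and larger symbols with SE bars for Ser7, Sp212, CG31326 and CG9631. In InRCA_HS against InRCA_noHS, Ser7 (6.20), Sp212 (5.69) and CG31326 (4.24) lie above the highest other gene, CG9737 (3.83), a position that the choice of the genes set.

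Of the 150 other family genes, 2 were called lower in InRCA_noHS than in both heated groups, grass and CG9737, a share like that over all genes (138 of 10372, 1.33%). Grass, the protease upstream of SPE, had 2140, 2600 and 2622 adjusted counts in InRCA_HS, 813, 631 and 810 in InRCA_noHS, and 1768, 3019 and 2416 in control_HS. The heated groups overlapped and the unheated libraries lay below both. CG9737 had 246, 30.1 and 39.0 in InRCA_HS, 3.39, 2.08 and 6.87 in InRCA_noHS, and 25.2, 34.8 and 41.6 in control_HS. InRCA_HS replicate 1 stood far above the other InRCA_HS libraries, which lay in the range of control_HS. Counted by position alone, 7 of the 150 genes had their 3 InRCA_noHS libraries below all 6 heated libraries, namely CG4927, CG3505, SPE, grass, CG9737, CG11313 and CG32271, against 4.09% of all genes.

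In the Toll cascade, SPE and grass were both lower in InRCA_noHS than in control_HS, and modSP was not. The list of 11 cascade genes in the table was wider than the chain described above. It also held ea, gd, spirit, spheroide and pip, the last of which has no SP or SPH name. Of the 11, 1 was called in InRCA_HS against control_HS, SPE, against 2.43% of all genes. In InRCA_HS against InRCA_noHS, 2 were called, grass higher and modSP lower, against 2.55% of all genes. In InRCA_noHS against control_HS, 3 were called, SPE (log2 fold change −2.86, adjusted p = 0.000218 by limma) and grass (−1.65, adjusted p = 0.00149) lower and pip higher (0.93, adjusted p = 0.0364), against 7.03% of all genes. SPE had 264, 230 and 322 adjusted counts in InRCA_HS, 181, 125 and 97.6 in InRCA_noHS, and 738, 1146 and 1028 in control_HS. SPE fell to a mean of 272 ± 46.5 in InRCA_HS, against 971 ± 210 in control_HS, the opposite direction to the 4 members. The log2 fold change was −1.82 with an SE of 0.25 (adjusted p = 0.00613 by limma). Its InRCA_HS libraries lay above those of InRCA_noHS, a log2 difference of 1.04 that did not pass (adjusted p = 0.0597). The gene of the ligand, spz, had 531, 344 and 219 in InRCA_HS, 339, 205 and 193 in InRCA_noHS, and 149, 173 and 113 in control_HS. Its InRCA_HS libraries lay above those of control_HS, and the log2 difference of 1.25 did not pass (adjusted p = 0.0722). The first protease of the chain, modSP, had 519, 649 and 541 in InRCA_HS, 935, 890 and 1116 in InRCA_noHS, and 772, 540 and 753 in control_HS, highest where grass was lowest. Persephone (psh) and CG6361, the gene of Hayan, passed in no comparison.

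**Figure D4:**
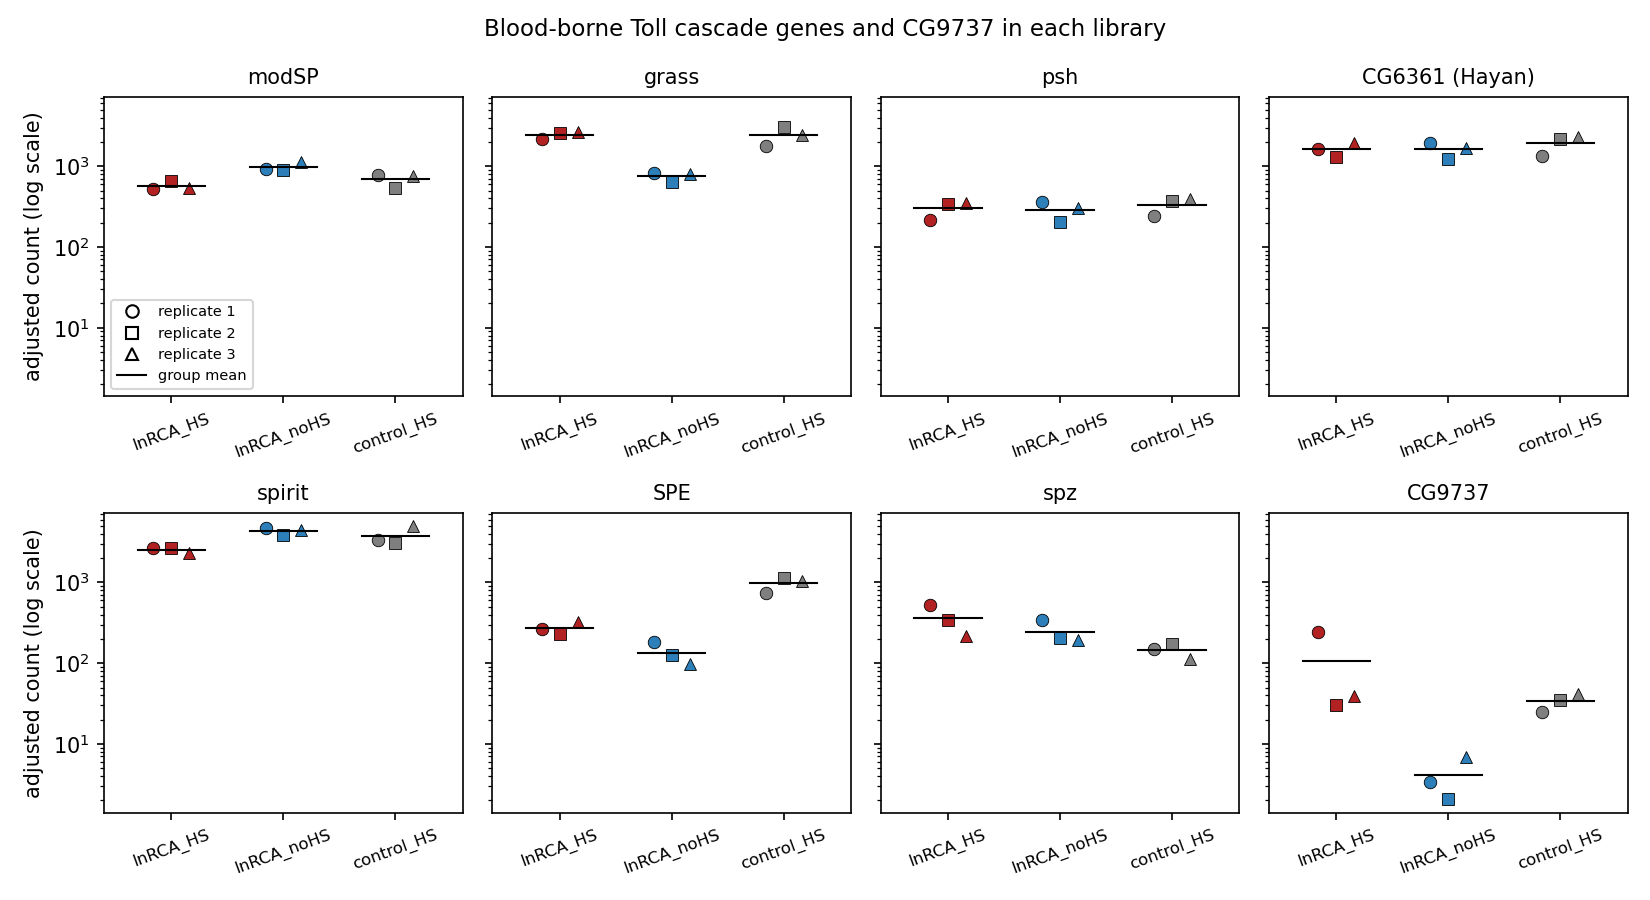
Adjusted counts (log scale) of 7 genes of the Toll cascade and of CG9737 in each library, with 1 symbol per library and a bar at the group mean, for InRCA_HS, InRCA_noHS and control_HS. SPE lies at 230 to 322 in InRCA_HS, 97.6 to 181 in InRCA_noHS and 738 to 1146 in control_HS, while grass is lowest in InRCA_noHS (631 to 813).

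Among 11 melanization genes, 1 was called in InRCA_HS against control_HS and in InRCA_noHS against control_HS, Dif, an NF-kappaB factor that acts downstream of Toll (against 2.43% and 7.03% of all genes). It had 200, 128 and 127 adjusted counts in InRCA_HS, 204, 147 and 148 in InRCA_noHS, and 303, 276 and 307 in control_HS. Dif was lower than in control_HS in both groups of the transgene cross, by a log2 fold change of −0.99 in InRCA_HS (adjusted p = 0.0423 by limma) and −0.84 in InRCA_noHS (adjusted p = 0.0433). Of 19 serpins, Spn28D, an inhibitor that restrains melanization, had 189, 225 and 306 in InRCA_HS, 316, 302 and 325 in InRCA_noHS, and 460, 571 and 757 in control_HS. It was lower in InRCA_HS than in control_HS (−1.31, adjusted p = 0.0172), as was Spn43Ab (−1.40, adjusted p = 0.0386). These 2 were the serpins called in that comparison (2.43% of all genes were called), and Spn47C (1.69, adjusted p = 0.0136) and Spn28D (−0.89, adjusted p = 0.0364) those called in InRCA_noHS against control_HS (7.03% of all genes).

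The genes whose log2 profile over the 9 libraries was most like the mean profile of the members were CG11236 (Pearson's r 0.980), CG42336 (0.968), bnb (0.965), CG10166 (0.965), Cpr11A (0.959) and moody (0.959). These values describe 9 libraries that share 3 group means and carry no test. CG11236 had 310, 237 and 251 adjusted counts in InRCA_HS, 58.6, 47.3 and 62.0 in InRCA_noHS, and 97.9, 169 and 121 in control_HS. Moody, a receptor known from the glia of the blood-brain barrier, had 502, 543 and 587 in InRCA_HS, 129, 91.5 and 104 in InRCA_noHS, and 218, 445 and 251 in control_HS. Both followed the order of the groups seen for Ser7, as did Cpr11A, a cuticle protein gene, with 662, 255.4 and 415 in InRCA_HS, 41.9, 21.6 and 33.5 in InRCA_noHS, and 125, 172 and 90.6 in control_HS. Grass ranked 53 (0.907), InR 643 (0.588) and SPE 1099 (0.437) by the same measure. Counted over the whole table, 37 genes (0.357%) had InRCA_HS above control_HS above InRCA_noHS with no overlap, as Ser7, Sp212 and CG31326 did, an order that their choice partly set.

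Marker genes of several other cell types differed between the groups as well. Fat bodies were separated by shearing, and in bulk tissue fewer cells of a type and less RNA per cell cannot be told apart. The summed adjusted counts of 13 markers of hemocytes, the insect blood cells, were 27490 to 44712 in InRCA_HS, 17109 to 23117 in InRCA_noHS and 30018 to 48692 in control_HS, lowest in the unheated group with no overlap. The library with the highest sum was control_HS replicate 2, which was also the highest control_HS library for Ser7, Sp212 and CG31326. As a share of all adjusted counts, InRCA_HS replicate 3 was higher (0.368%, against 0.350% in control_HS replicate 2). In the other groups the orders differed. The hemocyte sum was highest in InRCA_HS replicate 3 (44712) and InRCA_noHS replicate 1 (23117). Ser7, Sp212 and CG31326 were highest in InRCA_HS replicate 1 and InRCA_noHS replicate 3. Of the 13 markers, Cg25C and vkg were called higher in InRCA_HS than in InRCA_noHS, against 2.55% of all genes called in either direction. Cg25C, vkg, Tig and nimC1 were called lower in InRCA_noHS than in control_HS, against 7.03%. Cg25C and vkg are the genes of collagen IV, and the fat body list holds Cg25C as well.

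Without the 2 collagen genes, the summed adjusted counts of the other 11 hemocyte markers were 18636 to 29776 in InRCA_HS, 14170 to 18780 in InRCA_noHS and 23414 to 34164 in control_HS, so InRCA_HS and InRCA_noHS overlapped. Tig weighed most in that sum, with 10270 to 17614 in InRCA_HS, 5296.5 to 8639.4 in InRCA_noHS and 11482 to 21522 in control_HS. In InRCA_HS against InRCA_noHS, 9 of the 13 markers had log2 fold changes above 0 and 4 below 0, srp and crq among the latter. In InRCA_noHS against control_HS, 3 were above 0 and 10 below. Hml, the hemolectin gene that defines larval plasmatocytes, had 1811, 1302 and 2805 in InRCA_HS, 1297, 1166 and 873 in InRCA_noHS, and 2068, 2788 and 1305 in control_HS. No hemocyte marker was below 1 adjusted count in any library, but every gene of the table had at least 1 recovered read in each. The summed markers of cuticle and epidermis (7 genes) were 4238 to 12640 in InRCA_HS, 3185 to 4925 in InRCA_noHS and 2433 to 3773 in control_HS. Of these, Lcp3, Lcp4, Cpr11A and Cpr78Ca were called higher in InRCA_HS than in control_HS, where 1.11% of all genes were called higher. Cpr11A was called lower in InRCA_noHS than in both heated groups, as were 1.33% of all genes. Midgut markers (32 genes, many of them digestive proteases) summed to 18138 to 54190 in InRCA_HS, 19587 to 51437 in InRCA_noHS and 25532 to 28139 in control_HS, and their groups overlapped. Salivary gland markers (9 genes) summed to 69217 to 207496 in InRCA_HS, 45339 to 125170 in InRCA_noHS and 24460 to 53334 in control_HS. All 9 had log2 fold changes above 0 in InRCA_HS against control_HS. Their median was 1.37, against 1.34 for the 4 members and 0.00 over all genes. Of the 9, Sgs5 was called, against 2.43% of all genes. Muscle markers (13 genes) summed to 31981 to 35277 in InRCA_HS, 22351 to 36568 in InRCA_noHS and 37185 to 70921 in control_HS. Act87E and Mlc2 were called lower in InRCA_noHS than in control_HS (15.4% of the 13, against 7.03% of all genes in either direction). The 7 neuron markers summed to 2897 to 4305 in InRCA_HS, 5526 to 6591 in InRCA_noHS and 5142 to 7880 in control_HS. The 6 tracheal markers summed to 2680 to 4032 in InRCA_HS, 2565 to 2984 in InRCA_noHS and 2735 to 3906 in control_HS. Of these, obst-A was called higher in InRCA_HS than in InRCA_noHS (against 2.55% of all genes in either direction). It was also called lower in InRCA_noHS than in control_HS (against 7.03%). The part of other cell types in the levels of Ser7, Sp212, CG31326 and CG9631 was not tested.

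**Figure D5:**
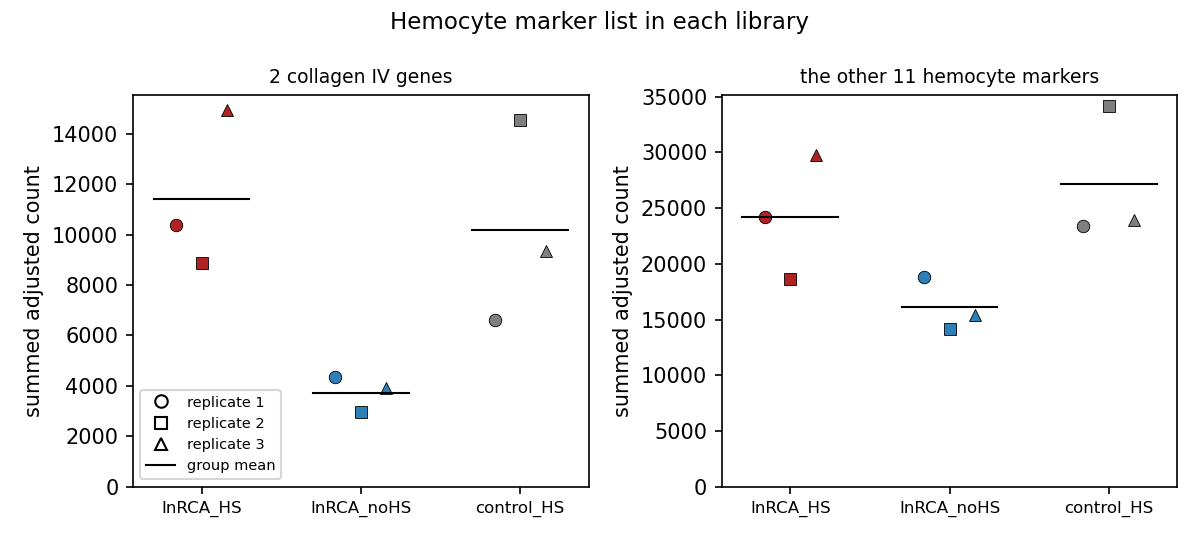
Summed adjusted counts (linear scale from 0) of the 2 collagen IV genes and of the other 11 hemocyte markers in each library, with 1 symbol per library and a bar at the group mean, for InRCA_HS, InRCA_noHS and control_HS. The collagen sum is 8854 to 14936 in InRCA_HS, 2939 to 4337 in InRCA_noHS and 6604 to 14528 in control_HS, and the sum of the other markers overlaps between InRCA_HS (18636 to 29776) and InRCA_noHS (14170 to 18780).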

How the data were processed

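RNA-seq of 9 larval fat body libraries was compared in 3 groups taken from the sample titles. Per the submitters' processing notes, the tools were Cufflinks 1.1.0, TopHat 1.3.2 and Bowtie 0.12.7, with dm3 as the build and no roles given. Which tool counted the reads, with which annotation and with or without strand, is not given in the sources used here. The deposited signal, 1 value per gene and library, consists of counts that the authors adjusted, as the values show. The tool for this is not named in the sources used here. The planned test on log2 values was kept. Undoing a negative binomial quantile adjustment (dispersion 0.0718) gave whole reads within 0.1 for 98.9% of 38615 values up to 100, so edgeR 4.0.16 and DESeq2 1.42.0 were run on recovered reads as alternatives. Other columns of samples numbered 0.

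Limma 3.58.1 (R 4.3.3) was fitted to log2(adjusted count + 1) of all 9 libraries, with 3 group means, a spread that followed the level, and Benjamini-Hochberg adjustment over 10372 genes at 0.05, two-sided. A minimum mean of 1 removed 0 genes. The recovery and the tests were also run on counts simulated from the same negative binomial model, with the estimated dispersion and library factors. Such a run cannot show whether that model holds for these data. Exact intervals (95%) for reads are Poisson intervals, and for ratios of reads binomial ones.

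The 4 genes and the lists were chosen with earlier results of these data known. The family was to be found from protein patterns, and promoters were to be searched for motifs. Neither could be done with the references at hand, so the family was taken, after the data had been seen, from RefSeq's SP and SPH names (258 genes, 154 in the table). Of the table's genes, 10359 matched a RefSeq gene. The reference is a later build than dm3, so no coordinates are given. Named genes are the 4 genes, InR, the 3 highest and 3 lowest called family genes per comparison, up to 4 genes per pathway list by p, the 6 most similar profiles and the chromosomal neighbours, with fewer printed. The family genes lower than both heated groups, further cascade genes and marker genes were named after their values were seen.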

Additional observations from a re-analysis of the deposited data

How the results depend on the processing

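The fits were repeated with pseudocounts of 0.1 and 5, with no filter and with minimum means of 5 and 20, with quantile normalization, TMM, no intensity trend, the replicate block or the 6 libraries of a comparison alone, with edgeR or DESeq2 on recovered reads, and without each of the 9 libraries. No member changed direction in any of them. In InRCA_HS against control_HS the log2 fold change of Ser7 (1.87) missed the threshold with no trend (adjusted p = 0.0597 by limma), with 6 libraries (0.0677) and with the replicate block (0.0546), and without 1 library it was 1.56 to 2.27. CG9631 missed it at 1.2003 with quantile normalization (adjusted p = 0.0649 by limma), and at 1.27 with no trend (0.0673), with 6 libraries (0.0770) and with the replicate block (0.0864), with 1.13 to 1.43 without 1 library. CG31326 passed with DESeq2 (1.35, adjusted p = 0.0161) and had 1.15 to 1.85 without 1 library. Sp212 passed in none (adjusted p = 0.101 to 0.644). Between InRCA_HS and InRCA_noHS, Ser7 moved to 5.48 with a pseudocount of 5 and 6.57 with DESeq2.

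In InRCA_HS against control_HS, 115 genes called higher and 137 lower, became 46 and 44 with no trend, 30 and 26 with 6 libraries, 323 and 447 with DESeq2, and 32 to 325 and 21 to 636 without 1 library. In InRCA_HS against InRCA_noHS, 182 higher and 83 lower became 111 and 34 with no trend, with 142 lower with 6 libraries, 53 lower with edgeR, 426 higher with DESeq2, and 85 to 220 and 16 to 116 without 1 library. In InRCA_noHS against control_HS, 337 higher and 392 lower became 200 and 246 with no trend, with 220 higher with TMM, 207 higher with edgeR, 752 lower with DESeq2, and 96 to 681 and 164 to 740 without 1 library. The share of higher calls was 68.7% in InRCA_HS against InRCA_noHS (80.1% with TMM, 81.6% with edgeR) and 46.2% in InRCA_noHS against control_HS (28.9% with TMM, 35.4% with quantile normalization, 27.2% with edgeR).

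Of the 150 other family genes in InRCA_HS against control_HS, the 3 higher and 2 lower became 1 lower with no trend, 1 and 1 with 6 libraries, 1 lower with the replicate block, 8 and 6 with DESeq2, and 2 to 6 and 1 to 8 without 1 library. The 3 higher and 3 lower in InRCA_HS against InRCA_noHS became 1 lower with TMM, 5 lower with 6 libraries, 6 and 5 with DESeq2, and 1 to 4 and 0 to 4 without 1 library. With no trend, 0 passed as lower by limma, with 16 at an unadjusted p under 0.05, against 2 by edgeR. The 8 higher and 7 lower in InRCA_noHS against control_HS became 5 higher with no trend, 15 lower with DESeq2, and 4 to 10 and 4 to 15 without 1 library. The cause of these shifts was not tested.

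Replicate numbers did not pair the samples: deviations of libraries with the same number correlated at −0.245 to 0.121, over 0.1 in 1 of 9 pairs. Ser7, Sp212 and CG31326 had 2 to 30 reads per library in InRCA_noHS, which limits the precision of their ratios.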
